A study of Mus musculus with 20 samples.

Results

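The genes described here act at and just after the mitochondrial step of apoptosis. They are Bax, Bak1, Bok, Apaf1, Casp9, Cycs, Diablo and Xiap, and they were taken by symbol from the table of expression values, where they make up 8 of 25869 genes. All 8 passed the filter on low values in each of 7 comparisons. RNA-seq was carried out on 20 mouse libraries without any drug treatment. Of these, 10 came from mouse embryonic fibroblasts (MEFs), cells grown out of embryos. They were 2 WT libraries, 2 dCas9-SAM libraries without an sgRNA, 2 dCas9-SAM libraries with a non-targeting control guide (sgNT) and 4 dCas9-SAM libraries with a guide for Bcl2 (sgBcl-2). The dCas9-SAM cassette is a catalytically dead Cas9 with transcriptional activators, which the guide brings to the promoter of its target, and by the study's methods the MEFs carried it on 1 allele. The MEFs came from 2 numbered lines of each genotype, and the labels do not say whether the 2 sgBcl-2 libraries of a line are different guides or cultures. A further 6 libraries were lymphoma cell lines of the genotype EuMYC/dCas9-SAM/sgBCL-2, 4 labelled IgM positive and 2 IgM negative. Each line came from an irradiated mouse reconstituted with transduced stem and progenitor cells, Myc being driven by the immunoglobulin heavy chain enhancer. Primary tumours of the same genotype gave 2 libraries, both labelled IgM positive, in which cells of the host mouse can be present. The last 2 libraries were preB acute lymphoblastic leukaemia (preB-ALL) cells with BCR-ABL1 (p190T/+), named P190CreERLSLErg and P190RagCreErg, whose genotype label names no dCas9-SAM and which were grown with IL7. No ages were used here. By the study, the WT and sgNT MEFs were independent lines, 2 for each genotype, and the number of a lymphoma line is that of the mouse it was derived from. The 2 sgBcl-2 libraries of a MEF line share that line, and whether the preB-ALL libraries came from separate animals is not given in the sources used here, so p-values with these libraries may rest in part on technical spread.

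BAX and BAK are the effector proteins of the BCL-2 family. Once they are released from pro-survival proteins such as BCL-2, they form pores in the outer mitochondrial membrane. Cytochrome c, encoded by Cycs, then reaches the cytosol and binds APAF1, which assembles into the apoptosome and activates caspase-9. SMAC, encoded by Diablo, leaves the mitochondrion by the same route and binds XIAP, an inhibitor of caspase-9 and of the executioner caspases. BOK is a relative of BAX and BAK whose activity is thought to be less dependent on the pro-survival proteins.

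In the coordinates of GRCm38, Bax (Entrez gene 12028) lies on chromosome 7 from 45461695 to 45466903, Bak1 (12018) on chromosome 17 from 27019812 to 27028627, and Bok (51800) on chromosome 1 from 93685575 to 93695770. Apaf1 (11783) lies on chromosome 10 from 90989311 to 91082743, and Casp9 (12371) on chromosome 4 from 141793612 to 141815978. Cycs (13063) lies on chromosome 6 from 50562563 to 50566569, Diablo (66593) on chromosome 5 from 123511330 to 123524164, and Xiap (11798) on the X chromosome from 42059613 to 42109664.

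The promoters of Cycs and Bok are shown because these genes differed most between groups. The sequences are RefSeq windows of GRCm38.p6 and end at the base before the gene's start. In Cycs, the capitals mark the core GCGCATGC of the motif of nuclear respiratory factor 1 (NRF1), a regulator of mitochondrial genes, and the CCAAT box, on either strand. In Bok they mark the GC box GGGCGG, on either strand.
Cycs, chr6:50566570-50566819, minus strand: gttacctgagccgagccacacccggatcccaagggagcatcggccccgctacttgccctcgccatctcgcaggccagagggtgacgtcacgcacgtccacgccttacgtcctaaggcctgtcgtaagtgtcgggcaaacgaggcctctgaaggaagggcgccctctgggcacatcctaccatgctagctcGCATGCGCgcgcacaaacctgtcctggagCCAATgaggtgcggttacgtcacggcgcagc
Bok, chr1:93685325-93685574, plus strand: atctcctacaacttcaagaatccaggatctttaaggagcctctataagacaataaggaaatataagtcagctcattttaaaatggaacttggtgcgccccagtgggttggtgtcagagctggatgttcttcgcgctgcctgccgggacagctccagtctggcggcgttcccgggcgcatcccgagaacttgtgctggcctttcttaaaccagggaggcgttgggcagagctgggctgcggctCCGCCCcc

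Over windows of 250 bases before and 50 after each start, the NRF1 core was present on either strand in 2.71% of 32851 mouse promoters and in those of 3 of the 8 genes. The matches are printed with their surroundings in the same build, the core in capitals.
Bax, chr7:45466944-45466973, minus strand: aaggtcgatccGCGCATGCgttcatttagt
Apaf1, chr10:91082838-91082867, minus strand: cccaccccaccGCGCATGCgagaacgctca
Cycs, chr6:50566611-50566640, minus strand: catgctagctcGCATGCGCgcgcacaaacc
The GC box was in the windows of 7 of the 8 genes, all but Bak1, and in 35.7% of all windows. The CCAAT box was in those of Cycs and Diablo and in 37.4% of all. The E box CACGTG, the core of the MYC motif, was in the window of Bax alone among the 8 genes and in 7.15% of all. TATAAA was in 1 of the 3 windows of Xiap and in 13.6% of all. All were searched on either strand.

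The values are CPM, the reads of a gene for every 1000000 reads counted on all genes of the library. Reads per library were between 12474885 and 26678417, with a median of 23229458, and the preB-ALL libraries were the shallowest. Levels, their order and the overlap of groups are given in CPM without a further scaling factor. The share of all genes whose groups did not overlap was not counted, so an overlap describes a single gene only. It is said where TMM factors over all 20 libraries, an alternative added after the values were seen, changed an order or an overlap. Fold changes are on the scale of log2(CPM + 0.1) after scaling with edgeR's TMM factors, and are given with their standard error (SE). Adjusted p-values are those of limma with the Benjamini-Hochberg method over all genes tested, and genes below 0.05 were called. The preB-ALL libraries came from another sequencing run and RNA kit than all other libraries, so run, kit, culture and leukaemia type cannot be told apart. Their column names also carry the name of an aligner, which those of the other libraries do not, and whether reads that match several places were counted alike in both sets is not stated. The sum of 10 B cell markers was between 1368 and 2763 CPM in the lymphoma lines and between 12.1 and 25.3 CPM in the MEFs. Among them Cd79a, a signalling chain of the B cell receptor, had between 325 and 755 CPM in the lines and at most 0.646 CPM in the MEFs. Ebf1 and Blk did not separate all lines from the MEFs, with 10.6 CPM of Ebf1 in line 19_216_IgMn and 0 of Blk in line 16_202_IgMp. In the MEFs the sum of 12 fibroblast markers was between 8493 and 25713 CPM. WT MEF 2 had the lowest of these sums and also the highest sum of 7 myeloid markers, 221 CPM against at most 8.58 CPM in every other MEF library. As these are bulk samples, fewer cells of a type and less RNA per cell cannot be told apart.

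Set per kilobase of exon, the levels in the MEFs followed the order Bax, Bak1, Cycs, Bok, Xiap, Apaf1, Diablo and Casp9. The means over the 10 MEF libraries were 147 CPM per kilobase for Bax, 44.2 for Bak1, 20.3 for Cycs, 11.8 for Bok, 7.88 for Xiap, 7.69 for Apaf1, 4.02 for Diablo and 3.17 for Casp9. In the 6 lymphoma lines the mean was 67.6 CPM per kilobase for Bax, 41.5 for Bak1, 37.7 for Cycs, 7.65 for Xiap, 7.23 for Diablo, 7.13 for Apaf1, 4.59 for Casp9 and 0.423 for Bok. Bax was thus the highest of the 8 genes in either cell type, and Bok moved from the fourth place to the last. All annotated exons of a gene were joined for its length, 6166 bases for Diablo against 2588 in its longest coding transcript. The order of genes with close values therefore depends on the length used.

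**Figure D1:**
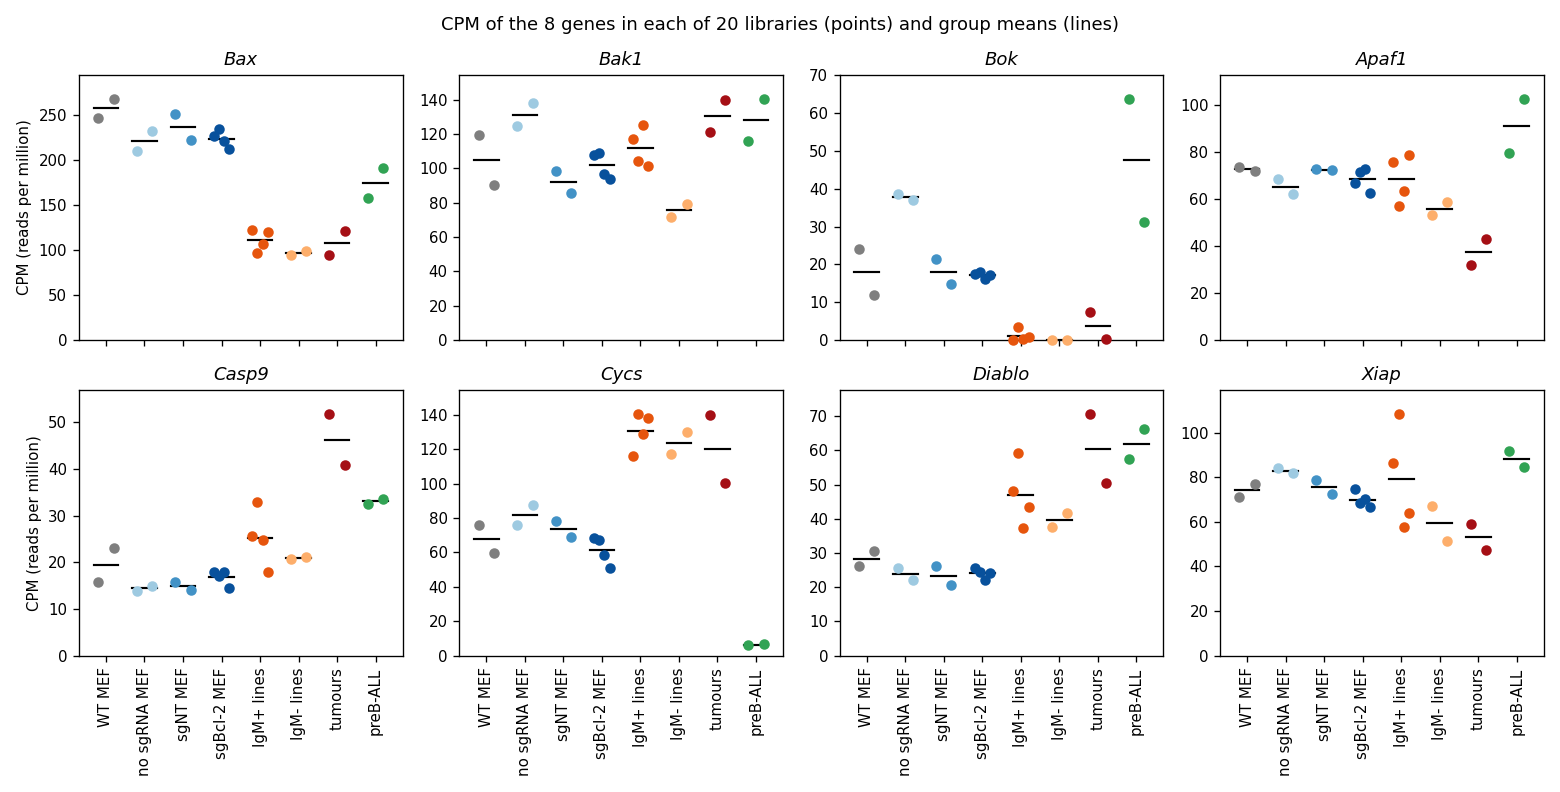
CPM of each gene (vertical axis, linear, starting at 0) in the 20 libraries, by group; points are libraries and lines are group means. Bax was above 209 CPM in all MEFs and below 123 CPM in all lymphoma lines, Bok was below 4 CPM in all lymphoma lines, and Cycs was below 7 CPM only in the preB-ALL libraries.

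The question of whether activation of Bcl2 came with a change of the death machinery was addressed in the MEFs. Bcl2 itself, the targeted gene, had 67.9 and 48.6 CPM in the sgBcl-2 libraries of MEF line 1 and 46.8 and 71.8 CPM in those of line 2, against 13.4 and 13.7 CPM with sgNT. Its log2 fold change was 2.17 (SE 0.187, adjusted p = 0.00118, limma). None of the 8 genes was called, beside 10.8% of 14676 genes. At an unadjusted p under 0.05 there were 2, Bak1 and Casp9, beside 29.2% of all genes. EdgeR, limma-voom and DESeq2 called 0 as well, beside 10.6%, 10.6% and 14.1% of all genes.

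Bax, the effector with the highest level, had 226 and 234 CPM in the sgBcl-2 libraries of line 1, 221 and 212.6 CPM in those of line 2, and 251 and 222 CPM with sgNT. The groups overlapped, and the log2 fold change was 0.01 (SE 0.064, adjusted p = 0.95, limma). Bak1 had 107.6 and 109 CPM in line 1 and 96.7 and 93.6 CPM in line 2 with sgBcl-2, against 98.7 CPM in line 1 and 85.7 CPM in line 2 with sgNT. Within each line both sgBcl-2 libraries were thus above the sgNT library, although the groups overlapped, which they did not after TMM scaling. The log2 fold change of Bak1 was 0.23 (SE 0.081, adjusted p = 0.1, limma). By their labels, same-numbered lines of the sgNT and sgBcl-2 groups are the same MEF line. With that number as a replicate block Bak1 was called (adjusted p = 0.0256, limma), beside 14.6% of all genes. It was also called with the libraries of each line summed (adjusted p = 0.0357, limma), beside 17.6%, so 1 of 8 genes is near the background in both.

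Casp9, the initiator caspase of the apoptosome, had 16.8 ± 1.65 CPM (SD, n = 4) with sgBcl-2 and 15.0 ± 1.25 CPM (SD, n = 2) with sgNT, a log2 fold change of 0.25 (SE 0.107, adjusted p = 0.16, limma). These groups overlapped, but not after TMM scaling. The groups of Cycs did not overlap in CPM, and after TMM scaling they did. Cycs had between 50.8 and 68.3 CPM in the 4 sgBcl-2 libraries against 78.4 and 69.1 CPM with sgNT. Its log2 fold change was -0.19 (SE 0.112, adjusted p = 0.309, limma). Bok, Apaf1, Diablo and Xiap had log2 fold changes between -0.03 and 0.14, with adjusted p-values of 0.436 or more (limma). The median log2 fold change of the 8 genes was 0.02, against -0.01 over all genes tested.

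Of the other caspases, 2 of 8 tested were higher with sgBcl-2, beside 10.8% of all genes called in either direction. Casp12, an inflammatory-type caspase of the endoplasmic reticulum, had 32.1 ± 2.35 CPM (SD, n = 4) against 22.1 ± 3.91 CPM (SD, n = 2), or 0.64 on the log2 scale (limma, adjusted p = 0.0127). Casp4, the sensor of intracellular lipopolysaccharide, had 7.10 ± 2.12 CPM (SD, n = 4) against 3.32 ± 0.566 CPM (SD, n = 2), or 1.119 on the log2 scale (limma, adjusted p = 0.0412). In each of the other 4 lists limma called 0 genes. At an unadjusted p under 0.05 there were 1 of 4 further inhibitor of apoptosis (IAP) genes, 5 of 11 mitochondrial partners, 0 of 6 apoptosome modifiers and 0 of 7 execution substrates, beside 29.2% of all genes tested.

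The background of the cassette and of the guide vector was read from the sgNT libraries. Against WT MEFs limma called 0 of the 8 genes and 0% of 14560 genes. At an unadjusted p under 0.05 there were 0 of the 8 genes and 589 genes in all, 4.05% of those tested. EdgeR, limma-voom and DESeq2 called 0 of the 8 genes, beside 0%, 0% and 0.57% of all genes. The WT libraries differed from each other, with 24.0 and 11.8 CPM for Bok, 120 and 90.6 CPM for Bak1 and 15.9 and 23.0 CPM for Casp9, and the values of the groups overlapped in all 8 genes, as they did in Bcl2 (0.05 on the log2 scale, limma, adjusted p = 0.948). After TMM scaling Casp9 and Diablo no longer overlapped. Without WT MEF 1, Casp9 and Cycs were called, beside 53.4% of all genes, and without WT MEF 2, Bak1 was called, beside 11.2%. In each of these fits the lone WT library is assumed to vary like the sgNT libraries.

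Against dCas9-SAM MEFs without an sgRNA, the sgNT libraries had less Bok and less Bak1. Bok had 38.7 and 37.1 CPM without an sgRNA and 21.3 and 14.9 CPM with sgNT. Its log2 fold change was -1.10 (SE 0.143, adjusted p = 0.000858, limma). Bak1 had 125 and 138.1 CPM without an sgRNA and 98.7 and 85.7 CPM with sgNT, a log2 fold change of -0.53 (SE 0.083, adjusted p = 0.00201, limma). In neither gene did the groups overlap, nor did they in Apaf1 and Xiap, nor after TMM scaling in Cycs, which were not called. How many of all genes did not overlap was not counted, so this is no result about the members. Bok and Bak1, 2 of 8 genes, stand beside 20.9% of 14655 genes called lower and 20.3% called higher, a comparable share. The other 6 genes had log2 fold changes between -0.17 and 0.14, with adjusted p-values of 0.112 or more (limma). Bcl2 was lower with sgNT (-0.38, SE 0.105, limma, adjusted p = 0.023). Fibroblast markers differed as well, in both directions. Thy1 had 186 and 173 CPM without an sgRNA and 861 and 709 CPM with sgNT, and Fn1 had 8929 and 7533 against 4451 and 6034 CPM. Whether this has a part in the Bok and Bak1 values was not tested. The sgNT libraries are shared with the comparisons above. In a fit with all 10 MEF libraries neither Bok nor Bak1 was called, beside 5.94% of 15158 genes. Their log2 fold changes were of about the same size, -1.09 for Bok (adjusted p = 0.0902, limma) and -0.52 for Bak1 (adjusted p = 0.129, limma).

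In the other lists of this comparison, 2 caspases were higher and 1 lower of 8 tested, 1 IAP gene higher and 2 lower of 4, 1 mitochondrial partner higher and 2 lower of 11, 0 apoptosome modifiers higher and 1 lower of 6, and 1 execution substrate higher and 1 lower of 7, beside the same 20.3% and 20.9% of all genes. The list medians lay between -0.16 and 0.15, against 0.00496 over all genes tested.

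**Figure D2:**
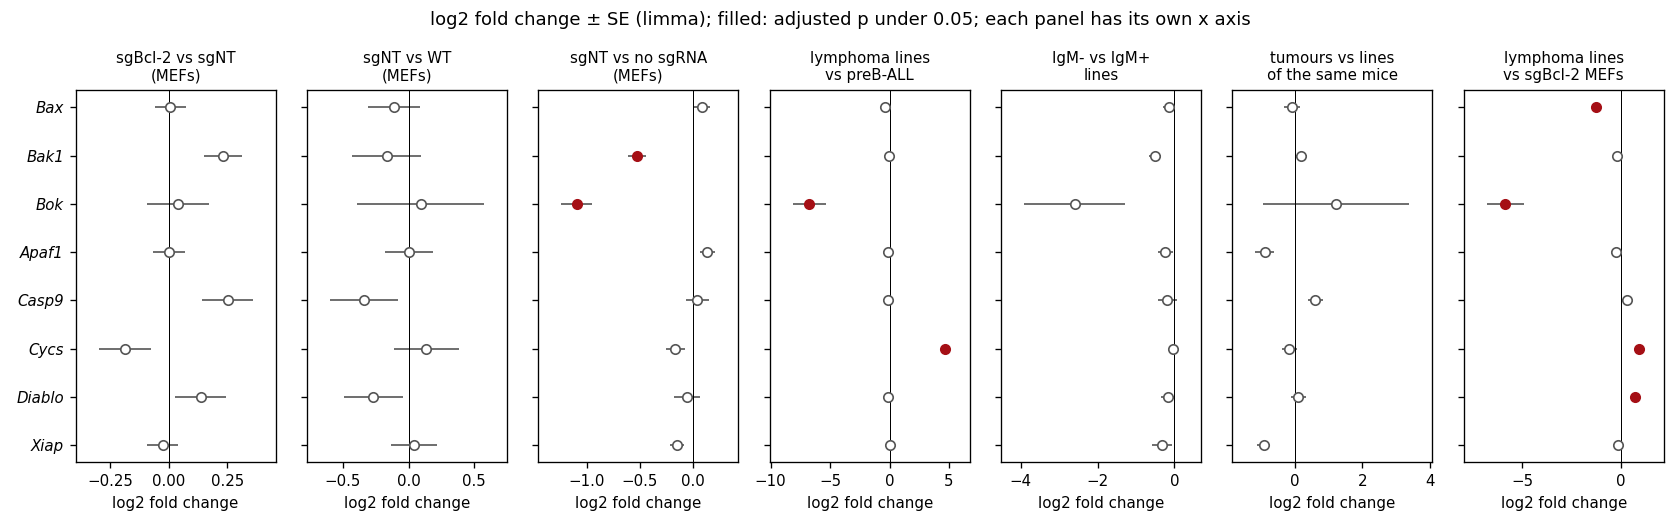
Log2 fold change of each gene with its standard error (log2 of CPM + 0.1, limma) in the 7 comparisons. Apart from Bok and Cycs against preB-ALL, and Bax, Bok, Cycs and Diablo against sgBcl-2 MEFs, the called changes were those of Bok and Bak1 between sgNT and no sgRNA.

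The lymphoma lines were compared with preB-ALL as a B cell tumour of another kind. By limma, Cycs was far higher and Bok far lower in the lymphoma lines, and the other 6 genes were not called. These are 1 of 8 genes higher and 1 lower, beside 20.9% and 22.5% of 13961 genes. Cycs had 116, 140.1, 129 and 138.2 CPM in the IgM-positive lines and 117 and 130 CPM in the IgM-negative lines, against 5.95 CPM in P190CreERLSLErg and 6.65 CPM in P190RagCreErg. Both preB-ALL libraries were below each of the 6 lines, and the log2 fold change was 4.68 (SE 0.114, adjusted p = 4.80e-08, limma). Over all 17 alternatives it lay between 4.33 and 4.71 and was always called.

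The 2 genes whose values over the 20 libraries were most like those of Cycs were Sumo2, a small ubiquitin-like modifier, and the mitochondrially encoded ND3, both with r = 0.99 among 13780 genes. Sumo2 had 3.87 and 4.33 CPM in preB-ALL and between 164 and 229 CPM in the lymphoma lines, and ND3 is listed at 0 in both preB-ALL libraries. Genes such as Cycs and Sumo2 have many processed pseudogenes, copies of their mRNA inserted elsewhere in the genome, and reads that match several places can be lost or split in counting. All 269 stretches of 50 bases in the coding sequence of Cycs, or 100%, also occur in transcripts annotated as pseudogenes in GENCODE vM21, as do 100% of those of Sumo2. The stretch of Cycs that lies within an exon and occurs in the most pseudogenes, 5 of them, is coding bases 194 to 243 on the minus strand.
Cycs, chr6:50565312-50565361, minus strand: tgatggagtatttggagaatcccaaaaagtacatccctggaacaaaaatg
Over its longest transcript, which has a long part after the coding sequence, the share was 8.78% for Cycs. In the coding sequence it was 5.96% for Xiap and 0% for each of the other 6 genes.

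Of the 13961 genes tested against preB-ALL, 12465 matched a protein-coding transcript by symbol and could be classed. A log2 fold change of at least 3 was found in 1.09% of 9945 genes whose longest transcript shares no such stretch, in 1.25% of 1839 genes with a share of up to 10%, where Cycs falls, in 3.60% of 584 genes with 10% to 50%, and in 15.5% of 97 genes with more than 50%. In the 1496 genes left unclassed it was 8.09%. Against sgBcl-2 MEFs, which were sequenced with the lymphoma lines, the corresponding shares were 5.10%, 4.45%, 3.01% and 0.99% of 13231 classed genes, and 7.06% of 1389 unclassed ones. The share of genes called higher, by contrast, rose over the classes in both comparisons. It went from 17.7% to 67.0% against preB-ALL and from 32.8% to 67.3% against sgBcl-2 MEFs. The median log2 fold change rose in both as well, from -0.16 to 1.42 and from -0.51 to 0.84. Both the bound of 3 and the classes were chosen after the values were seen. The part that shared sequence had in the preB-ALL values of Cycs was not tested.

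**Figure D3:**
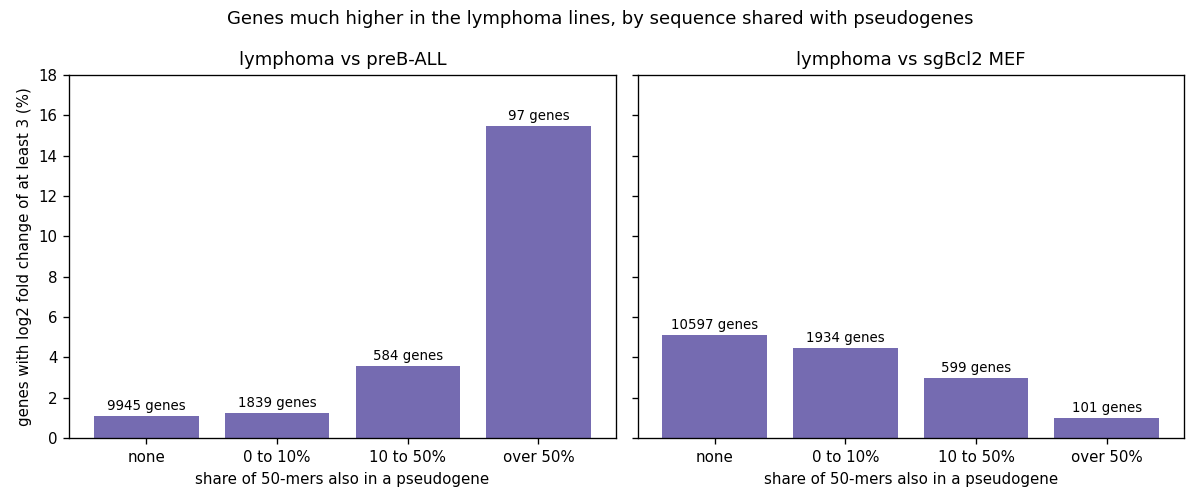
Percentage of the classed genes with a log2 fold change of at least 3 in the lymphoma lines (vertical axis, bars from 0), by the share of the 50-base stretches of their longest transcript that also occur in a pseudogene, against preB-ALL on the left and sgBcl-2 MEFs on the right. The bar for more than 50% stands at 15.5% on the left and 0.99% on the right, and Cycs falls in the second bar of each panel, at 1.25% and 4.45%.

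Bok had 0.0406, 3.60, 0.190 and 0.846 CPM in the IgM-positive lines 14_179_IgMp, 15_180_IgMp, 16_202_IgMp and 17_213_IgMp, which are 1, 96, 5 and 17 reads. In the IgM-negative lines 18_214_IgMn and 19_216_IgMn it had 0 reads, which allows up to 0.117 and 0.129 CPM by counting error at a limit of 3 reads. In preB-ALL it had 63.7 CPM in P190CreERLSLErg and 31.3 CPM in P190RagCreErg, both above every lymphoma line. The log2 fold change was -6.76 (SE 1.38, adjusted p = 0.00491, limma). Its size depends on the pseudocount and was -4.68 with 1 CPM in place of 0.1 CPM. Without P190CreERLSLErg the gene was no longer called, at -6.22 on the log2 scale (limma, adjusted p = 0.0531). DESeq2 gave it no adjusted p. In the tumours Bok had 7.32 CPM in tumour library 20 and 0.299 CPM in tumour library 21.

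Between preB-ALL and the lymphoma lines, the sum of the 12 fibroblast markers moved with Bok. It was 5858 CPM in P190CreERLSLErg and 2517 CPM in P190RagCreErg, and between 5.80 and 88.3 CPM in the lymphoma lines. Col1a1, a collagen chain, had 855 and 456 CPM and Fn1, fibronectin, 2851 and 1090 CPM in the preB-ALL libraries. Other markers were low there, with Dcn at 0 in both, Lum at 0.0668 and 0, Thy1 at 0.601 and 2.40, and Postn at 7.35 and 1.20 CPM. At least 1 CPM was reached by 9 and 10 of the 12 markers. In the MEFs, with sums of 8493 CPM or more, Bok had between 11.8 and 38.7 CPM. P190CreERLSLErg was above this range with 63.7 CPM, and P190RagCreErg was within it with 31.3 CPM. Within the MEFs, the libraries without an sgRNA had the most Bok, at 37.1 and 38.7 CPM, with sums of 18411 to 21303 CPM. The sgBcl-2 libraries had 16.2 to 18.1 CPM of Bok with sums of 21474 to 25713 CPM.

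In line 15_180_IgMp and tumour library 20, the lymphoma libraries with the most Bok, the sum rested on 2 of the 12 markers, Thy1 and Sparc. Together these had 77.9 of 88.3 CPM in the line and 217.02 of 221 CPM in the tumour. The same held with far less Bok in line 17_213_IgMp (18.7 of 21.4 CPM) and tumour library 21 (22.3 of 25.9 CPM), while in line 18_214_IgMn they had 0.586 of 6.17 CPM. Without these 2, a choice made after the values were seen, the sum was between 2.69 and 10.4 CPM in the lymphoma lines and tumours, and still 5681 and 2419 CPM in preB-ALL. The part of these markers in the Bok values was not tested. The genes most like Bok over the 20 libraries were Nrp1, a co-receptor for semaphorins and VEGF, and Tsc22d1, both with r = 0.95, a description over libraries that share cell type and run.

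**Figure D4:**
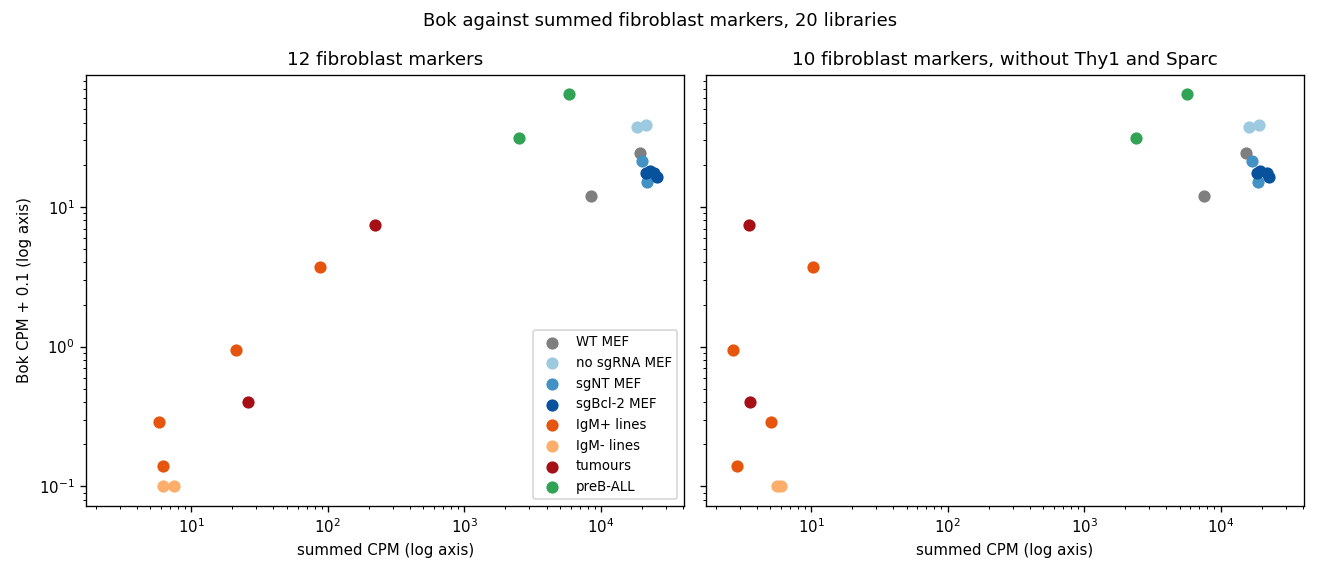
Bok (CPM + 0.1, log axis) against the sum of 12 fibroblast markers (log axis, left) and of 10 of them without Thy1 and Sparc (right), a point for each library. The preB-ALL libraries stand nearest to the MEFs in both panels, while the spread of the lymphoma libraries along the horizontal axis is from 5.80 to 221 CPM on the left and from 2.69 to 10.4 CPM on the right.

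Bax had 123, 97.1, 106 and 120 CPM in the IgM-positive lines and 94.1 and 99.4 CPM in the IgM-negative lines, against 157 and 191 CPM in preB-ALL. All 6 lines were below both preB-ALL libraries. After TMM scaling the log2 fold change was -0.35 (SE 0.141, adjusted p = 0.077, limma), and Bax was not called. It was -0.45 with RLE scaling (adjusted p = 0.0313, limma) and -0.71 without a scaling factor (adjusted p = 0.00506, limma). DESeq2 called Bax as well (-0.45, adjusted p = 0.00942), beside 44.9% of the genes it tested. The median of all genes was -0.07 after TMM scaling and -0.42 without a scaling factor, so the levels of the 8 genes have to be read relative to that shift. Bak1, Apaf1, Casp9, Diablo and Xiap had scaled log2 fold changes between -0.14 and 0.03, with adjusted p-values of 0.547 or more (limma). In CPM Apaf1 was below both preB-ALL libraries in all 6 lines, but not after TMM scaling, and in the other 4 genes the groups overlapped. Bcl2 was higher in the lymphoma lines (3.02, SE 0.195, limma, adjusted p = 9.02e-06).

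Among the other genes of the pathway, 7 of 10 mitochondrial partners tested were higher and 0 lower in the lymphoma lines, beside 20.9% of all genes higher and 22.5% lower. The same shares apply to the lists that follow in this comparison. Parl, a protease of the inner membrane, was higher by 0.83 on the log2 scale (limma, adjusted p = 0.000405). Htra2, a protease that also binds XIAP, by 1.48 (limma, adjusted p = 0.000935), and Endog, a mitochondrial endonuclease, by 2.92 (limma, adjusted p = 0.0019). Of the apoptosome modifiers, 4 of 6 were higher and 1 lower, led by Hspa8 with 2.55, Hsp90aa1 with 2.75 and Cse1l with 1.13. The share of coding stretches that also occur in pseudogenes was 90.7% for Hspa8 and 85.4% for Hsp90aa1, genes looked up after their values were seen.

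Of 8 other caspases, 0 were higher and 3 lower, namely Casp12, Casp4 and Casp1, the caspase of the inflammasome. For Casp1 the preB-ALL libraries averaged 59.1 ± 14.7 CPM (SD, n = 2), against 1.40 ± 2.47 CPM (SD, n = 6) in the lines (adjusted p = 0.0115, limma). Of 7 IAP genes, Birc6 and Birc5 were higher with log2 fold changes of 0.63 and 0.40, and Birc2 was lower with -0.68. Of 7 execution substrates, Parp1, the DNA repair enzyme cut by caspases, was higher with 1.43 (adjusted p = 0.00456, limma) and 0 were lower. The list medians were 0.87 for the mitochondrial partners, 0.89 for the apoptosome modifiers, -1.83 for the caspases, 0.24 for the IAP genes and 0.29 for the execution substrates, against -0.07 over all genes tested.

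Between the IgM-negative and the IgM-positive lines, limma, edgeR and limma-voom called none of the 8 genes. Beside this they called 0.597%, 0.194% and 0.00807% of 12386 genes. The exception was DESeq2, which called Bak1. Bak1 had 71.9 and 79.5 CPM in the IgM-negative lines and 117, 104, 125 and 101 CPM in the IgM-positive lines, and the groups did not overlap. The log2 fold change was -0.50 (SE 0.148, adjusted p = 0.293, limma), and Bak1 was the only member with an unadjusted p under 0.05, beside 11.3% of all genes. With DESeq2 its adjusted p was 0.0418, beside 6.1% of genes called. The median log2 fold change of the 8 genes was -0.21, against -0.02 over all genes tested, and in Bax, Apaf1, Casp9, Cycs, Diablo and Xiap the groups overlapped. Bok had no read in either IgM-negative line and at least 1 in each IgM-positive line (adjusted p = 0.52, limma). Bcl2 was not called (-0.25, limma, adjusted p = 0.687).

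In the 5 other lists limma called 0 genes between the IgM groups. At an unadjusted p under 0.05 there were 2 of 6 caspases, 1 of 7 IAP genes, 1 of 10 mitochondrial partners, 1 of 6 apoptosome modifiers and 2 of 7 execution substrates, beside 11.3% of all genes tested.

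The primary tumours were compared with the lines 14_179_IgMp and 15_180_IgMp from the same 2 mice. The titles and descriptions of the tumour libraries give opposite mouse numbers, so tumours and lines were not paired. None of the 8 genes was called, beside 0.33% of 12719 genes, and edgeR and limma-voom called 0 members and 0 genes. At an unadjusted p under 0.05 there were 3 of the 8, beside 25.9% of all genes. Xiap had 59.2 CPM in tumour library 20 and 47.5 CPM in tumour library 21, against 86.5 and 108 CPM in the lines, a log2 fold change of -0.91 (SE 0.193, adjusted p = 0.0883, limma). Apaf1 had 31.8 and 43.1 CPM in the tumours, the lowest values of the gene in any library, against 75.5 and 57.2 CPM in the lines. Its log2 fold change was -0.87 (SE 0.279, adjusted p = 0.153, limma). Casp9 had 51.7 and 40.9 CPM in the tumours, the highest of any library, against 25.7 and 32.9 CPM in the lines, a log2 fold change of 0.61 (SE 0.223, adjusted p = 0.186, limma).

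In each of these 3 genes the tumours and lines did not overlap. The share of all genes without overlap was not counted here either. In Bax, Bok, Cycs and Diablo the tumours and lines overlapped, with adjusted p-values of 0.696 or more (limma). Bcl2 was not called (0.57, limma, adjusted p = 0.103), without overlap. DESeq2 called Xiap alone (adjusted p = 0.00465), beside 16.5% of all genes. With tumours and lines paired by their titles as a replicate block, all 3 were called, with adjusted p-values of 0.0127 for Xiap, 0.0157 for Apaf1 and 0.0397 for Casp9 (limma), beside 28.3% of all genes. A block by the numbers of the descriptions called 0 of the 8 genes and 0 genes in all. The tumours were also the libraries with the most reads on Ggnbp1, which lies on the opposite strand from Bak1 and shares 614 bases of exon with it. Ggnbp1, named after its values were seen, had 111 and 95.4 CPM in the tumours and between 0.647 and 29.3 CPM in the lymphoma lines. Bak1 had 121 and 140 CPM in the tumours and 117 and 104 CPM in the lines, without overlap in CPM but with overlap after TMM scaling (log2 fold change 0.19, adjusted p = 0.554, limma). The library kit does not mark the strand, so reads of the shared stretch cannot be assigned to either gene, and their part in the Bak1 values was not tested. Diablo shares 1326 bases of exon with B3gnt4 on the opposite strand, which had at most 1.49 CPM in any library.

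Myeloid markers summed to 31.1 and 41.6 CPM in the tumours against 2.07 to 13.1 CPM in the lymphoma lines, and the part of host cells in the tumour values was not tested. In the 5 other lists limma called 0 genes. At an unadjusted p under 0.05 there were 3 of 7 caspases, 1 of 8 IAP genes, 1 of 10 mitochondrial partners, 3 of 6 apoptosome modifiers and 1 of 7 execution substrates, beside 25.9% of all genes tested.

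The lymphoma lines and the sgBcl-2 MEFs both carry an activated Bcl2 gene and were sequenced together. They are also different cell types, and most genes differed, with 36.3% of 14620 genes higher and 45% lower in the lymphoma lines. Of the 8 genes, Cycs and Diablo were higher, Bax and Bok were lower, and Bak1, Apaf1, Casp9 and Xiap were not called. Bcl2 was higher (1.05, SE 0.176, limma, adjusted p = 0.000237). The comparison shares the lymphoma lines with the comparison against preB-ALL and the sgBcl-2 libraries with that against sgNT.

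For Bax the lymphoma lines averaged 106 ± 12.01 CPM (SD, n = 6), and the sgBcl-2 MEFs 223 ± 8.98 CPM (SD, n = 4), without overlap, a log2 fold change of -1.25 (SE 0.089, adjusted p = 2.41e-07, limma). Bok had 16.2 to 18.1 CPM in the MEFs and at most 3.60 CPM in the lines (log2 fold change -5.84, SE 0.937, adjusted p = 0.000171, limma). The size again depends on the pseudocount and was -3.75 with 1 CPM. Cycs had 128 ± 10.2 CPM (SD, n = 6) against 61.2 ± 8.22 CPM (SD, n = 4), a log2 fold change of 0.90 (SE 0.091, adjusted p = 4.66e-06, limma). Diablo had 44.6 ± 8.22 CPM (SD, n = 6) against 24.1 ± 1.51 CPM (SD, n = 4), and every line was above every sgBcl-2 MEF library. Its log2 fold change was 0.69 (SE 0.114, adjusted p = 0.000207, limma). These 4 calls held in all 18 alternatives.

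Bak1, the other main effector, had 99.9 ± 20.8 CPM (SD, n = 6) against 102 ± 7.75 CPM (SD, n = 4), and Xiap 72.5 ± 21.1 CPM (SD, n = 6) against 70.0 ± 3.51 CPM (SD, n = 4). Apaf1 had a log2 fold change of -0.28 (SE 0.119, adjusted p = 0.0523, limma) and Casp9 of 0.30 (SE 0.151, adjusted p = 0.0867, limma). The median of all genes was -0.27 and moved to -0.46 with RLE scaling. With it Bak1 and Apaf1 were called lower as well, beside 81.2% of all genes called, and also with DESeq2, beside 81.4%. Apaf1 was also called without line 14_179_IgMp, beside 81.6%, and Apaf1 and Casp9 without line 17_213_IgMp, beside 81.1%. Without a scaling factor, where the median of all genes was -0.0965, Casp9 was called higher (0.48, limma, adjusted p = 0.0212), beside 81.6%. Relative to the median of all genes, Bak1 at -0.23 and Apaf1 at -0.28 stood close to it.

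In the rest of the pathway, 6 of 7 IAP genes were higher in the lymphoma lines than in the sgBcl-2 MEFs and 0 lower, beside 36.3% and 45% of all genes. The same shares apply to the lists that follow. Birc5, the mitotic protein survivin, had 142 ± 12.9 CPM (SD, n = 6) against 17.6 ± 3.17 CPM (SD, n = 4), a log2 fold change of 2.84. Naip2, a sensor of bacterial proteins, had 4.08, and Birc6 0.69. Of 7 caspases, 3 were higher and 3 lower, with Casp2 at 3.77 and Casp4 at -5.75. Casp12 had a single read in the 6 lines together, against 32.1 ± 2.35 CPM (SD, n = 4) in the sgBcl-2 MEFs.

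Of 11 mitochondrial partners, 6 were higher and 3 lower, with Parl at 1.01, Opa1, a dynamin of the inner membrane, at 1.13 and Septin4 at -2.75. Of 6 apoptosome modifiers, 5 were higher and 1 lower, led by Cse1l at 1.81, Anp32a at 1.97 and Aven at 0.90. Of 7 execution substrates, 5 were higher and 1 lower, led by Parp1 at 3.69, Acin1 at 1.24 and Lmnb1 at 4.30. The list medians were 2.84 for the IAP genes, -0.52 for the caspases, 0.35 for the mitochondrial partners, 0.90 for the apoptosome modifiers and 1.28 for the execution substrates, against -0.27 over all genes tested.

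Ratios within a library do not depend on its scaling factor and are given as log2 of CPM per kilobase of exon, as a description. They do depend on the lengths used, those of all annotated exons of a gene joined, and so does their place against a ratio of 1. Diablo has 6166 bases of exon and Xiap 9469, against 2588 and 6834 in their longest coding transcripts. Xiap over Diablo, the caspase inhibitor over its antagonist, was between 0.71 and 1.27 in the 10 MEF libraries, between -0.31 and 0.25 in the lymphoma lines, -0.27 and 0.06 in preB-ALL, and -0.87 and -0.71 in the tumours. The MEFs did not overlap with any other group, and the tumours lay below all other libraries. Bax over Bak1 was between 1.36 and 2.17 in the MEFs, between 0.37 and 1.00 in the lymphoma lines, 0.24 and 0.41 in the tumours and 1.05 and 1.06 in preB-ALL. Within the MEFs it was 1.36 in both libraries without an sgRNA and 1.96 or more in both with sgNT. A ratio shows that the genes differed unequally, not which of them did.

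Bcl2 over the sum of Bax and Bak1 was between -7.40 and -6.64 in the 6 MEF libraries without sgBcl-2 and between -5.19 and -4.47 in the 4 with it. It was between -3.29 and -2.56 in the lymphoma lines, -2.35 and -2.10 in the tumours and -6.22 and -6.03 in preB-ALL. In all 20 libraries Bcl2 RNA per kilobase was thus below the summed RNA of the effectors, and the ratio was highest in the tumours.

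**Figure D5:**
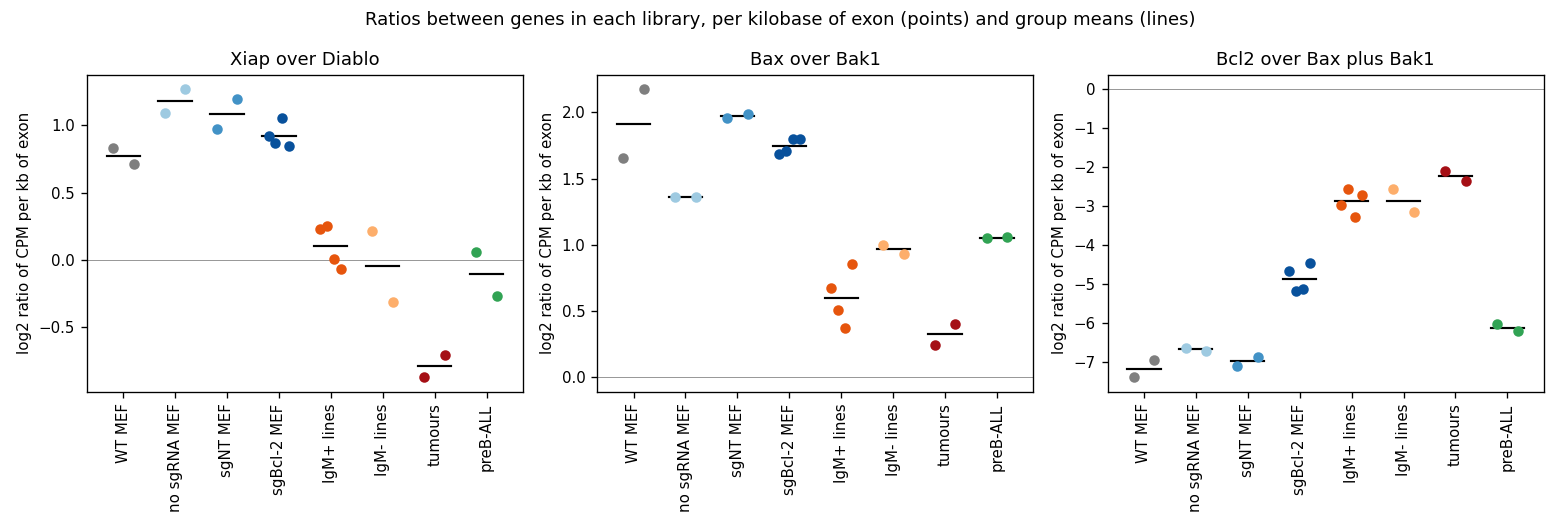
Log2 ratios of CPM per kilobase of exon (vertical axes) for Xiap over Diablo, Bax over Bak1, and Bcl2 over Bax plus Bak1 in the 20 libraries by group; points are libraries, thick lines are group means and the thin line is a ratio of 1. Bcl2 over Bax plus Bak1 stands between -5.19 and -4.47 in the sgBcl-2 MEFs, above all other MEFs, and below the lymphoma lines.

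Across the groups, the order of the means differed from gene to gene, and for genes that were highest in preB-ALL it rested on the scaling. Bax was highest in WT MEFs, at 257 ± 15.0 CPM (SD, n = 2), and lowest in the IgM-negative lines, at 96.8 ± 3.69 CPM (SD, n = 2), and neighbouring MEF groups overlapped with each other. Bak1 was highest in MEFs without an sgRNA, at 131 ± 9.52 CPM (SD, n = 2), and every neighbouring pair overlapped down to the IgM-negative lines, which stood apart at 75.7 ± 5.41 CPM (SD, n = 2). Cycs was highest in the IgM-positive lines, at 131 ± 11.04 CPM (SD, n = 4), and overlapped there with the IgM-negative lines and the tumours. Casp9 was highest in the tumours, at 46.3 ± 7.64 CPM (SD, n = 2), above preB-ALL without overlap. Apaf1 and Xiap were lowest in the tumours, at 37.5 ± 7.98 CPM and 53.4 ± 8.27 CPM (SD, n = 2), Apaf1 without overlap with its neighbour. For Diablo the 4 MEF groups held the lowest places. These first and last places were the same after TMM scaling.

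In CPM the first place of Bok, Apaf1, Diablo and Xiap was held by preB-ALL, and after TMM scaling by another group in each. Apaf1 had 91.1 ± 16.1 CPM in preB-ALL (SD, n = 2) but 71.8 ± 8.80 after scaling, where the sgBcl-2 MEFs came first with 74.3 ± 4.38 (SD, n = 4) and overlapped with it. Diablo had 61.9 ± 6.26 CPM in preB-ALL (SD, n = 2) but 48.9 ± 2.25 after scaling, behind the tumours with 57.5 ± 11.7 (SD, n = 2), which it also overlapped. Xiap had 88.2 ± 5.19 CPM in preB-ALL (SD, n = 2) but 69.96 ± 7.97 after scaling, the sixth place, behind MEFs without an sgRNA at 86.7 ± 2.19 (SD, n = 2). Bok had 38.1 ± 20.2 after scaling in preB-ALL and 39.6 ± 1.48 in MEFs without an sgRNA (SD, n = 2), and the groups overlapped.

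Among the 8 genes, the values over the 20 libraries were most alike for Casp9 and Diablo (r = 0.87) and most opposed for Bax and Diablo (r = -0.92), with Apaf1 and Casp9 at -0.78. These correlations of log2 values are descriptions over libraries that share cell type and run. The most similar other genes were Klc3 and Atp6v0d1 for Bax (both r = 0.98), Hip1r and A530040E14Rik for Diablo (both 0.96), Tle6 (0.95) and Bcr (0.89) for Apaf1, and Tnip2 (0.93) and Klhl17 (0.92) for Casp9. Xiap and Bak1 had no close neighbour, with Tfg (0.79) and Fndc3c1 (0.75) for Xiap and 9930111J21Rik1 (0.76) and 9930111J21Rik2 (0.72) for Bak1.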

How the data were processed

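RNA-seq values of 20 mouse libraries were analysed. The authors aligned reads to GRCm38/mm10 with Rsubread, counted them per Entrez gene and deposited CPM values, scaled only by each library's total. Settings for reads that match several places are not given in the sources used here. The labels name an unstranded TruSeq kit. Whole reads were recovered from 100% of the values (tolerance 0.01 reads), so depth is known. Symbols came from the GRCm38.p6 gene table and matched 25242 of 25869 identifiers.

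Genes kept by edgeR's filterByExpr were scaled by TMM and fitted with limma's lmFit and eBayes with trend on log2(CPM + 0.1), with the libraries of the 2 groups only. P-values were adjusted by Benjamini-Hochberg over all genes tested, with a threshold of 0.05. Tools were R 4.3.3, limma 3.58.1, edgeR 4.0.16, DESeq2 1.42.0 and Python 3.11.15. The fits were tested on simulated data. The 8 genes, the lists and the alternatives were chosen with earlier results of these data known. The alternatives were RLE or no scaling, pseudocounts of 0.5 and 1 CPM, no filter, edgeR, limma-voom and DESeq2 on recovered reads, each replicate left out, replicate blocks, sgBcl-2 libraries summed per MEF line, all 10 MEF libraries, and IgM-positive lines only.

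The text names the 8 genes and Bcl2 in every comparison. From each other list it names up to 3 called genes with the smallest adjusted p, and it names the 2 genes most similar to each of the 8 over libraries, among genes with a mean of at least 1 CPM. Other named genes are marked. Exon lengths, overlaps and pseudogenes were taken from GENCODE vM21, and promoters from RefSeq. The MEF pairing rests on the line numbers of the labels. The deviations of same-numbered lines correlated with r = 0.32 across genes between sgNT and sgBcl-2 and -0.05 between sgNT and no sgRNA. They had r = -0.13 between sgBcl-2 and no sgRNA, and 0.18 between sgBcl-2 and WT, whose lines are of another genotype. No libraries of a group agreed within sampling noise.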

Additional observations from a re-analysis of the deposited data

Results flagged for a closer look

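Bok in the 6 lymphoma lines had 1 library far from the others. Line 15_180_IgMp had 3.60 CPM (96 reads), the highest of 6, while the next had 0.846 CPM and 2 lines had 0 reads. The gap to the nearest line was above the Dixon limit for 6 samples. Among 33 groups of values tested this way, 1 was picked out, and chance picks out about 1 in 20. The same line had 49.6 CPM of Thy1 and 28.3 CPM of Sparc, more than any other line, and the part of the cells with these transcripts was not tested. Without it, the log2 fold change of Bok was -7.49 against preB-ALL and -6.48 against sgBcl-2 MEFs.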

How the results depend on the processing

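Over 56 fold changes of the 8 genes in 7 comparisons and 862 alternative values, 837 stayed on the same side of the threshold and 816 kept their sign. Among the other 25 is Bok against preB-ALL with DESeq2, which gave no adjusted p. For 41 of the 56 no alternative changed the call, and no called change turned its direction. Of the 8 genes, the replicate block called 1 between sgBcl-2 and sgNT in place of 0 (Bak1), as did the libraries summed per MEF line with the block. With all 10 MEF libraries, 0 of the 8 genes were called between sgNT and no sgRNA in place of 2. Leaving out each replicate gave 0 to 2 members for sgNT against WT and 1 to 2 for lymphoma lines against preB-ALL. DESeq2 called 1 for IgM-negative against IgM-positive lines (Bak1) and 1 for tumours against lines (Xiap), where the replicate block by the titles called 3. The other replicate blocks changed no call of a member. The causes of these changes were not tested.

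Over all genes, sgBcl-2 against sgNT called 1592, but 64 with all 10 MEF libraries, 2654 with summed libraries and the replicate block, and 156 to 1638 with a replicate left out. Without sgNT MEF 1 it was 156, without sgNT MEF 2 198, and without the sgBcl-2 library 1-1 960. For sgNT against WT the 0 became 83 with DESeq2, 68 with all 10 MEF libraries, 8424 without WT MEF 1, 1644 without WT MEF 2 and 3 without sgNT MEF 1. For sgNT against no sgRNA the 6029 became 901 with all 10 MEF libraries. For lymphoma lines against preB-ALL the 6059 became 3177 without P190RagCreErg. For the IgM groups the 74 became 47 with a pseudocount of 1 CPM, 24 with edgeR, 1 with limma-voom, 749 with DESeq2 and 35 to 117 with a line left out (35 without 14_179_IgMp or 17_213_IgMp, 48 without 15_180_IgMp, 117 without 19_216_IgMn). For tumours against lines the 42 became 0 with RLE scaling, no filter, edgeR, limma-voom, the replicate block by descriptions and each replicate left out, 79 without scaling, 2100 with DESeq2 and 3600 with the replicate block by titles. At 1 to 5 reads, as in 2 lymphoma lines, depth limits Bok.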
